A study of Drosophila melanogaster with 40 samples.

Results

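The cytosolic ribosomal protein genes of Drosophila melanogaster were described here as the 91 genes of a table of 17609 genes whose FlyBase identifier carried a symbol that starts with RpL or RpS. Genes of mitochondrial ribosomal proteins and RpLP0-like were left out by that rule. The members comprised 53 genes named for the large subunit and 38 named for the small subunit, and the annotation listed all 91 as protein coding. They were spread over the genome, with 19 on chromosome arm 2L, 20 on 2R, 14 on 3L, 23 on 3R, 14 on X and 1 on chromosome 4.

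Each cytosolic ribosome carries one copy of nearly every one of these proteins, together with ribosomal RNA, so cells make them in matched amounts. In flies the messenger RNAs of these proteins are among the most abundant of the cell, insulin and TOR signalling govern ribosome production as part of growth control, and loss of one copy of many of these genes gives the slow-growing Minute phenotype. Several members have a close paralogue, some of which are known for use in the germ line.

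RNA was taken from whole flies and counted by sequencing of transcript 3' ends in 40 libraries, 1 for each condition. Wild-type flies, labelled young or old, contributed 13 libraries at each age, and flies labelled insulin ablated, which the series describes as lacking the insulin-producing cells, contributed 7 at each age. Heat-shocked flies were taken at 0, 1, 2, 4, 6 and 8 h after the stress and sorted into climbers and non-climbers by a climbing test, and each combination of genotype and age had 1 control without heat shock, labelled 4 h, whose behaviour was not assessed. Non-climbers were sequenced from wild-type flies only, so each ablated group held 6 climber libraries and 1 control. Strain, sex, ages in days, the means of ablation and the number of flies per library were not given in the sources used here. Of the insulin-like peptide genes made by those cells, Ilp2 had 5 to 40 counts in each wild-type library and 0 to 3 in each ablated library. Ilp3 had 1 to 21 counts in wild-type libraries and 0 to 20 in ablated ones, with 20 in ablated old 1 h and 14 in ablated old 6 h, and Ilp5 had 3 to 46 and 0 to 9. Ilp2 thus separated the genotypes without overlap, and Ilp3 and Ilp5 did not.

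Library totals ran from 11714961 to 48747409 counts. The 5 labelled batches followed genotype, age and hour: wild-type young libraries were in batches 1 and 2, wild-type old in 2, 3 and 4, ablated young in 4 with its 8 h library in 5, and ablated old in 5 alone. Levels are given in CPM, the counts of a gene relative to the library size as scaled by the TMM method. Several libraries stood apart from their groups. The ablated young libraries of 0 h and 1 h had values of their own for the members, given below. In ablated young flies the summed level of 8 inducible heat shock genes was 2869 CPM in the library labelled control, above the 1558 CPM of the 6 h and the 2488 CPM of the 8 h library, whereas each of the other controls lay below all heat-shocked libraries of its own group. The wild-type young non-climber 6 h library held 54.0 CPM of testis and male accessory gland markers where the other 39 had at most 1.59 CPM, and the wild-type old climber 1 h library held 4442 CPM of muscle markers, the highest of its group, where the median of that group was 880 CPM.

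Of the 91 members, 85 had enough counts for the test in the model over all 40 libraries, and 83 of these, called abundant here, reached a mean log2 CPM of 3 or more. The 2 low ones were RpS10a and RpS19b. The 6 that were not tested were RpL7-like, which had no count in any library, and RpL10Aa, RpL22-like, RpL37-2, RpS28a and RpS28-like, which had between 18 and 65 counts over all libraries. Changes are log2 fold changes from edgeR's quasi-likelihood test with their standard errors, in a model with terms for genotype and age, for hour and for behaviour, and p-values were adjusted by Benjamini and Hochberg over all 11449 genes tested. Counting did not state a strand, and 27 members overlap a gene on the opposite strand, so reads of those pairs may not be told apart. In RNA of whole flies, fewer cells of a type and less RNA per cell cannot be told apart.

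A large part of each library came from these genes. Their summed share of all gene counts was 18.0 to 20.3% in the wild-type young libraries, with a median of 19.5%, and 17.2 to 19.9% in the wild-type old libraries, with a median of 17.8%. In ablated old flies it was 25.4% at 0 h, 27.1% at 1 h, 26.7% at 2 h, 26.9% at 4 h, 26.3% at 6 h, 23.3% at 8 h and 24.5% in the control. All 7 ablated old libraries thus lay above all 26 wild-type libraries. In ablated young flies the share was 16.9% at 0 h, 17.5% at 1 h, 23.6% at 2 h, 20.5% at 4 h, 22.7% at 6 h, 24.7% at 8 h and 23.7% in the control. The libraries of 0 h and 1 h lay within or below the wild-type range, and the other 5 lay above it. The 95% Wilson intervals of these shares were at most 0.0432 percentage points wide, which covers counting error only. Large and small subunit genes kept a nearly fixed proportion, with 1.48 to 1.58 counts on the large subunit genes for each count on the small subunit genes.

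**Figure D1:**
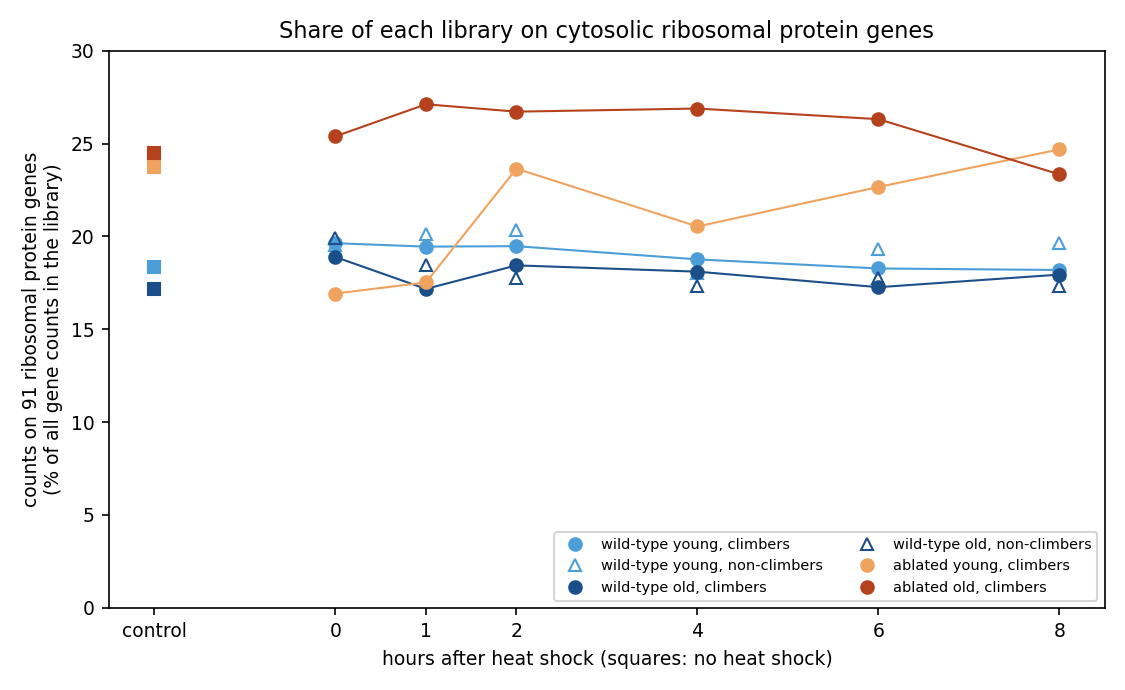
The vertical axis gives the percentage of each library's gene counts that fell on the 91 ribosomal protein genes, and the horizontal axis gives hours after heat shock, with the unstressed controls as squares on the left. Each point is 1 library. Ablated old libraries sit between 23.3 and 27.1%, wild-type libraries between 17.2 and 20.3%, and the ablated young series starts at 16.9% and ends at 24.7%.

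The members were first compared between ablated and wild-type old flies, the difference that the design's question on insulin-producing cells addresses in aged animals. Of the 85 members tested, 79 were higher and 1 was lower in ablated old flies, where 56.9% of all genes tested passed the threshold of 0.05, with 29.9% of all genes higher and 27% lower. The median log2 fold change of the members was 0.47, against 0.08 over all genes and -0.10 over the 483 other genes whose mean log2 CPM was 8 or more. In each of the 7 matched pairs of libraries the mean of the members was higher in the ablated library, by 0.41 to 0.55 on the log2 scale. Among the 83 abundant members, 73 had all ablated old libraries above all the matched wild-type old libraries, and 1 had all of them below. Separation of groups without overlap was examined in members alone, here and below, so no share over all genes stands beside it.

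RpS3, a small subunit protein at the mRNA entry site that also has a role in DNA repair, had the largest rise. Its level was 1381 to 2007 CPM in wild-type old flies, with a median of 1655, and 2599 to 3456 CPM in ablated old flies, with a median of 3106. The groups did not overlap, and the fitted change was 0.92 ± 0.08 (SE, edgeR adjusted p = 4.45e-11). RpL3, which lies near the peptidyl transferase centre, moved from 2060 to 2977 CPM in wild-type old flies to 3525 to 4728 CPM in ablated old flies, a change of 0.85 ± 0.08. RpL23, at 2307 to 3528 CPM against 4472 to 5641 CPM, changed by 0.83 ± 0.08. RpL4, which lines the exit tunnel of the growing chain, changed by 0.79 ± 0.08, and RpL28 by 0.72 ± 0.06. All 5 were higher in 7 of 7 matched pairs.

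The members with a known further role moved in the same direction. RpL40 and RpS27A, which are made as fusions with ubiquitin, rose by 0.69 ± 0.06 and 0.47 ± 0.06. The acidic stalk proteins that call translation factors to the ribosome, RpLP0, RpLP1 and RpLP2, rose by 0.42 ± 0.08, 0.47 ± 0.08 and 0.67 ± 0.06. RpL5 and RpL11, which carry 5S ribosomal RNA into the large subunit, rose by 0.56 ± 0.07 and 0.62 ± 0.06. RpS6, the classical substrate of S6 kinase in growth signalling, was at 1838 to 2284 CPM in wild-type old and 2410 to 3085 CPM in ablated old flies, and rose by 0.47 ± 0.06. The Minute gene RpL36 rose by 0.41 ± 0.06. RpL32, often used as a reference gene for quantitative PCR in flies, was at 2094 to 2848 CPM in wild-type old flies and 2752 to 3273 CPM in ablated old flies, a change of 0.43 ± 0.06 (edgeR adjusted p = 1.79e-07). With scaling on short transcripts, described below, RpL32, RpLP0, RpLP1 and RpL36 no longer passed.

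RpL39 was the exception. This very small large subunit protein of the exit tunnel was at 2541 to 3450 CPM in wild-type old flies and 1752 to 2397 CPM in ablated old flies, and fell by 0.43 on the log2 scale (SE 0.05, edgeR adjusted p = 2.19e-08). It was lower in 7 of 7 pairs, with no overlap of the groups. RpL22, RpS5b and RpL37A did not pass, with log2 values of 0.12, 0.12 and -0.08, and with RpS10a and RpS19b they were the 5 tested members without a call.

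**Figure D2:**
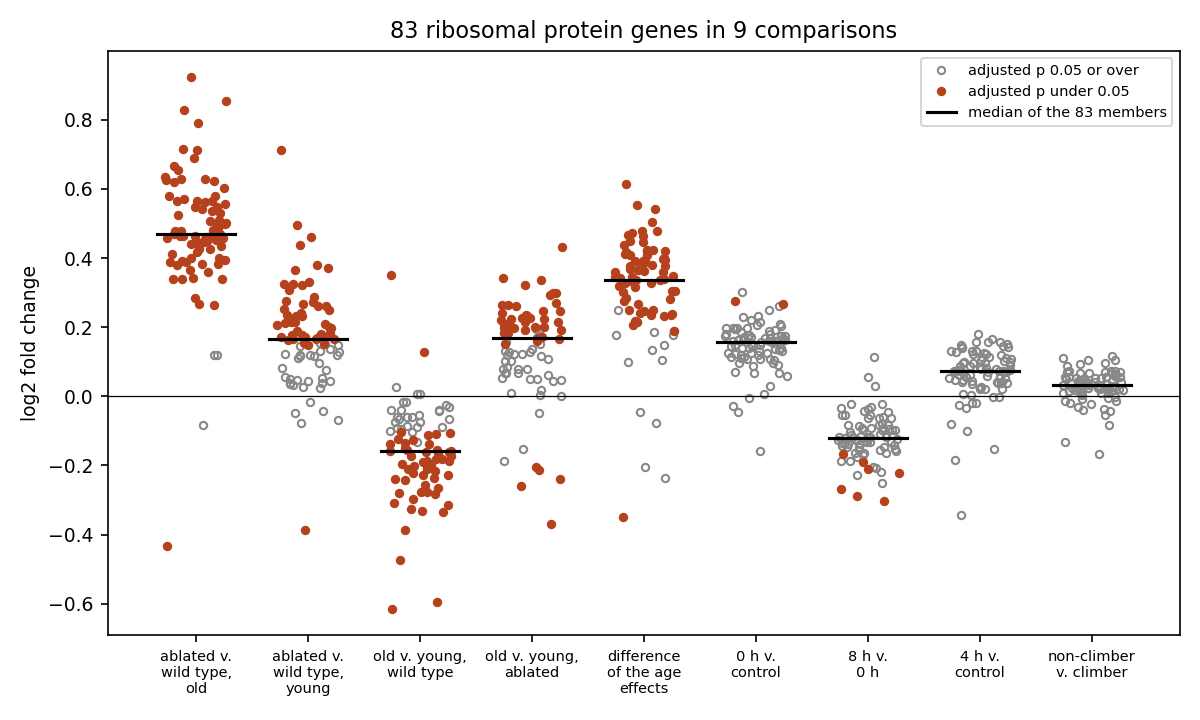
Each point is 1 of the 83 abundant members, placed by its log2 fold change on the vertical axis in each of 9 comparisons. Filled points passed an adjusted p of 0.05 and black bars are medians of these 83. The whole set lies above 0 in old flies by genotype except RpL39 and RpL37A, and mostly below 0 for age in wild type.

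Several other measures moved with this difference. The members have short transcripts, with a median longest transcript of 877 bases against 1983 bases for the other genes tested, and short transcripts of other genes were also higher in ablated flies. Among other genes whose mean log2 CPM was 8 or more, the median change in old flies by genotype was 0.31 under 600 bases, 0.46 from there to below 1000, 0.38 to below 1500, 0.17 to below 2500, -0.67 to below 4000 and -1.48 at 4000 bases and over. The members had medians of 0.44, 0.48 and 0.46 in the first 3 of these classes. Transcripts of 4000 bases and over held 15.6 to 19.02% of the counts in wild-type old libraries and 8.84 to 9.99% in ablated old libraries. When the libraries were scaled on transcripts under 1500 bases outside the set, 49 members were higher and 3 lower, with a median of 0.15 against -0.24 over all genes.

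Markers of cell types differed as well. All 10 neuron markers were lower in ablated old flies, with a summed level of 127 to 154 CPM against 344 to 453 CPM in wild-type old flies, and 9 of these 10 genes have a transcript of 4000 bases or over. Of 10 gut markers 9 were higher, with 2454 to 4549 CPM against 790 to 1634 CPM. Of 8 fat body markers 4 were higher and 1 lower, with a median of 0.50, and of 10 muscle markers 3 were lower. Of 11 female germline markers 3 were higher and 2 lower, with summed levels of 2636 to 3215 CPM against 2688 to 3072 CPM. Of 8 haemocyte markers 1 was higher and 1 lower, and testis and male accessory gland markers were at most 1.59 CPM in both. No matched pair of genotypes shared a batch, and with batch as a covariate 2 members were higher and none lower, with a median of 0.40. Genotype and batch cannot be told apart in these libraries, and the part of transcript length and of the cell types in the result was not tested.

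**Figure D3:**
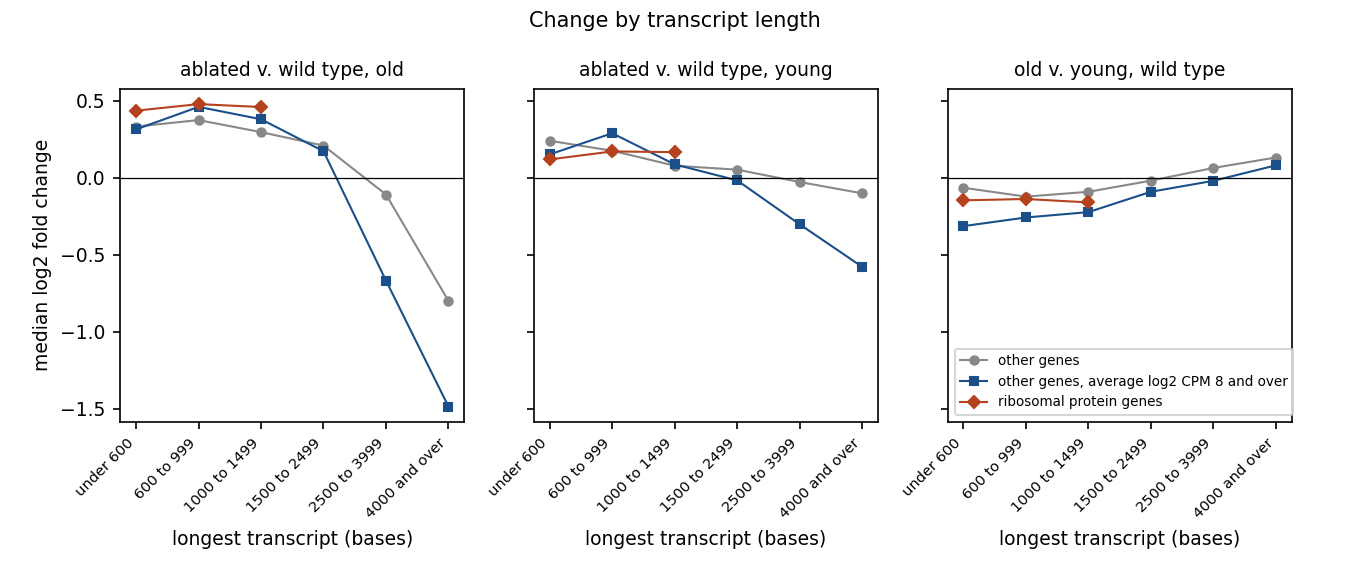
The horizontal axis groups genes by their longest annotated transcript in bases, and the vertical axis gives the median log2 fold change of each class in 3 comparisons. Diamonds are the ribosomal protein genes, which are shown for the classes under 1500 bases, squares are other genes whose mean log2 CPM was 8 or more, and circles are other genes of any level. In ablated against wild-type old flies the squares run from 0.31 in the shortest class to -1.48 in the longest.

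Between ablated and wild-type young flies the change was smaller and varied among the matched pairs of libraries. Whether it depended on the hour was not tested in young flies alone. Of 85 members, 48 were higher and 1 was lower in ablated flies, where 33% of all genes passed, 18.2% higher and 14.8% lower. The median was 0.17, against 0.04 over all genes and -0.11 over other genes at a mean log2 CPM of 8 or more. By length, those other genes had medians of 0.15 under 600 bases, 0.29 from there to below 1000 and 0.09 to below 1500. The members had 0.12, 0.17 and 0.17 in the same classes. The mean of the members was higher in the ablated library by 0.20 at 2 h, 0.16 at 4 h, 0.23 at 6 h, 0.33 at 8 h and 0.37 in the control, by 0.02 at 0 h, and was lower at 1 h, with -0.14. At 1 h 11 of 83 abundant members were higher in the ablated library, and at 8 h 81 of 83 were. Without the 0 h and 1 h libraries of ablated young flies, 63 members passed.

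Those 2 libraries also differed from the other ablated young libraries in other measures. Transcripts of 4000 bases and over held 16.2 and 16.5% of their counts, against 9.93 to 10.6% in the other 5 ablated young libraries and 14.5 to 17.0% in wild-type young libraries. Their long-transcript share was thus within the wild-type young range. Their summed neuron markers, 682 CPM at 0 h and 562 CPM at 1 h, were above the 324 to 511 CPM of wild-type young libraries and the 275 to 363 CPM of the other ablated young ones. Their gut markers, at 3977 and 2743 CPM, and their muscle markers, at 5049 and 3436 CPM, were within the range of the ablated young group, and the gut values were above all wild-type libraries. Neither held a count of Ilp2, Ilp3 or Ilp5. Over all young libraries, 9 of 10 gut, 7 of 10 muscle, 2 of 10 neuron and 2 of 8 haemocyte markers were higher with ablation. Of eggshell markers 5 of 11 were lower, with a median of -1.05, of female germline markers 4 of 11 were lower, and of fat body markers 3 of 8 were lower and 1 was higher. The part of these cell types in the result was not tested.

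RpL34b, a large subunit gene with a paralogue, had the largest rise in young flies. It was at 927 to 1372 CPM in wild-type and 1444 to 2128 CPM in ablated young flies, without overlap, and changed by 0.71 ± 0.09 (edgeR adjusted p = 2.4e-07). RpLP0, the stalk base, was at 1271 to 1694 CPM against 1719 to 2445 CPM and changed by 0.50 ± 0.08. RpL3 changed by 0.46 ± 0.08, RpL37-1 by 0.44 ± 0.08 and RpL23 by 0.38 ± 0.08. The first 3, together with RpL24-like, were the 4 members whose ablated young libraries all lay above the matched wild-type ones. RpL39 was again the single member that fell, from 2942 to 3939 CPM to 2278 to 3000 CPM, with -0.39 ± 0.05 and no overlap of the matched libraries. RpS6 and RpL32 changed by 0.17 ± 0.06 and 0.18 ± 0.06, and neither passed with scaling on short transcripts. That scaling left 19 members higher and 3 lower, batch as a covariate left 1 higher, and leaving out the ablated young control and 6 h libraries left 23 higher and 2 lower.

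Age in wild-type flies was addressed with 13 matched pairs of libraries. Of 85 members, 54 were lower in old flies and 2 were higher, where 37.7% of all genes passed, 18.9% higher and 18.7% lower. The median of the members was -0.16, against 0.02 over all genes and -0.08 over other genes at a mean log2 CPM of 8 or more. The mean of the members was lower in the old library in 12 of 13 pairs, with differences from -0.34 to 0.04 on the log2 scale, and for no member did the ages separate without overlap.

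The largest falls were in RpS2 and the stalk protein RpLP1. RpS2, a small subunit protein known in yeast for its part in decoding accuracy, was at 2605 to 3532 CPM in young and 1603 to 2634 CPM in old flies, overlapping slightly, and changed by -0.61 ± 0.06 (edgeR adjusted p = 3.03e-10, lower in 13 of 13 pairs). RpLP1 was at 2896 to 4523 CPM in young and 2144 to 3424 CPM in old flies, with -0.59 ± 0.06 and the same direction in 13 of 13 pairs. The other stalk genes fell less, RpLP2 by 0.33 (SE 0.04) and RpLP0 by 0.19 (SE 0.06). RpS20 changed by -0.47 ± 0.05, RpS5b by -0.39 ± 0.08 and the ubiquitin fusion RpL40 by -0.33 ± 0.04, each lower in 13 of 13 pairs.

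RpL34b and RpL37A were the 2 members that rose with age in wild type. RpL34b was at 927 to 1372 CPM in young and 1122 to 1685 CPM in old flies, and changed by 0.35 ± 0.07 in 12 of 13 pairs. RpL37A changed by 0.13 ± 0.05 (edgeR adjusted p = 0.0417) in 10 of 13 pairs. RpS6 fell by 0.14 (SE 0.04), whereas RpL32 had -0.06 ± 0.04 and RpL36 -0.06 ± 0.04 without passing.

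No age pair of wild-type flies shared a batch. With batch as a covariate no member passed by edgeR, 6 had an unadjusted p under 0.05, and the median was 0.0026. In batch 2, the single batch with both ages, the 5 young libraries of 6 h, 8 h and the control had shares of 18.2 to 19.7%, and the 3 old libraries of 0 and 1 h had 18.5 to 19.9%. Scaling on short transcripts left 30 members lower and 3 higher. Other genes at a mean log2 CPM of 8 or more and from 600 to below 1000 bases had a median of -0.26, and the members of that length -0.14. In old wild-type flies 9 of 10 muscle, 6 of 10 gut, 5 of 11 eggshell, 4 of 8 fat body, 3 of 8 haemocyte and 1 of 10 neuron markers were also lower. Of fat body markers 1 was higher, and of 11 female germline markers 3 were higher and 3 lower. The part of these cell types in the result was not tested.

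Age in ablated flies gave the opposite direction for most members. Of 85, 43 were higher in old flies and 5 were lower, where 37% of all genes passed, 15.7% higher and 21.3% lower, and the median was 0.17 against -0.0026 over all genes and -0.25 over other genes at a mean log2 CPM of 8 or more. By length, those other genes had medians of 0.01 under 600 bases, 0.06 from there to below 1000 and 0.06 to below 1500. The members had 0.17 in each of the same classes. The mean of the members was higher in old flies by 0.33 at 0 h and 0.35 at 1 h, by 0.14 to 0.16 at 2, 4 and 6 h, and lower at 8 h and in the control, with -0.07 and -0.08. The 8 h pair is the single one within a batch. Without the 0 h and 1 h libraries of ablated young flies, 5 members were higher and 5 lower. With batch as a covariate none was higher and 3 were lower, RpL22, RpLP0 and RpS2, and scaling on short transcripts left 18 higher and 8 lower. All 10 neuron, all 10 muscle, 6 of 8 haemocyte, 3 of 10 gut and 1 of 8 fat body markers were lower in old ablated flies. Of 11 female germline markers 2 were higher and 1 lower, and no eggshell marker passed. The part of these cell types in the result was not tested.

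RpS3 and RpL11 were the members whose ablated ages separated without overlap, though the ranges of both nearly touched. RpS3 was at 1738 to 2598 CPM in young and 2599 to 3456 CPM in old ablated flies, with 0.43 ± 0.08 (edgeR adjusted p = 9.54e-05), and RpL11 at 1243 to 1656 CPM and 1657 to 2016 CPM, with 0.34 ± 0.06. RpL9, RpL29 and RpL30 changed by 0.34 ± 0.07, 0.32 ± 0.07 and 0.30 ± 0.06. Without the early libraries RpS3, RpL11, RpL9 and RpL30 still passed, with values of 0.25, 0.20, 0.18 and 0.16, and RpL29 did not. The 5 members that fell were RpL39 with -0.37 ± 0.05, RpL22 with -0.26 ± 0.08, RpLP0 with -0.24 ± 0.08, RpL37A with -0.21 ± 0.07 and RpS2 with -0.20 ± 0.08.

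The difference between the age effects of the genotypes was tested itself. For wild type this test took the age effect without the terms for non-climbers, so the age effects given above do not subtract to it exactly. For 68 of 85 members the age effect was more positive in ablated flies and for 1 it was more negative, where 36.4% of all genes passed, 15.5% more positive and 20.8% more negative, and the median difference was 0.34 against -0.08 over all genes and -0.14 over other genes at a mean log2 CPM of 8 or more. By length, those other genes had medians of -0.04 under 600 bases, 0.19 from there to below 1000 and 0.24 to below 1500. At 4000 bases and over they had -0.89. The members had 0.31, 0.33 and 0.35 in the first 3 of these classes. RpS3 differed by 0.61 ± 0.12, RpL40 by 0.55 ± 0.09, RpL41 by 0.54 ± 0.09, RpL4 by 0.50 ± 0.11 and RpS23 by 0.48 ± 0.08. RpL37A was the member with the opposite sign, at -0.35 ± 0.10 (edgeR adjusted p = 0.0051). Without the early ablated young libraries 43 were positive and 3 negative, with scaling on short transcripts 27 and 5, and with batch as a covariate none passed. All 10 neuron and 5 of 10 muscle markers had a more negative age effect in ablated flies. Of 11 eggshell markers 4 were more positive, and of 8 fat body markers 3 were more positive and 1 more negative. Of 11 female germline markers 2 were more positive and 2 more negative, and no gut or haemocyte marker passed. The part of these cell types in the result was not tested.

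Heat shock was compared first at 4 h. Against the controls of the same hour no member passed by edgeR, where 0.769% of all genes did, 0.62% higher and 0.148% lower. At an unadjusted p under 0.05 there were 2 members, and by DESeq2 with adjustment none passed. The median was 0.07, against 0.04 over the 483 other genes whose mean log2 CPM was 8 or more, and the interquartile range of the members was 0.04 to 0.11. The member with the smallest p was RpS5b, with -0.34 ± 0.12 (edgeR adjusted p = 0.207, lower in 6 of 6 pairs), followed by RpS19a with 0.18 ± 0.09 and RpS7 with 0.16 ± 0.08. Of the 6 pairs 4 shared a batch. Without the ablated young control and 6 h libraries, 1 member was higher and 1 lower, with a median of 0.14.

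Directly after heat shock the members tended upward. At 0 h against the controls, 79 of 85 members had values above 0 and the median was 0.16, against 0.02 over all genes. The 483 other genes at a mean log2 CPM of 8 or more had the same median of 0.16, over transcripts of all lengths. By length, those other genes had medians of -0.02 under 600 bases, 0.05 from there to below 1000 and 0.08 to below 1500. At 4000 bases and over they had 0.39. The members had 0.17, 0.14 and 0.16 in the first 3 of these classes. RpS29, with 0.28 (edgeR adjusted p = 0.0223), and RpS7, with 0.27 (edgeR adjusted p = 0.049), passed, where 3.87% of all genes did, 1.73% higher and 2.14% lower. Both were higher in 5 of 6 pairs. The mean of the members was higher at 0 h by 0.18 for climbers and 0.18 for non-climbers of young wild type, by 0.21 and 0.34 in old wild type and by 0.24 in ablated old flies, and lower in ablated young flies, with -0.17. Leaving out the wild-type young or the ablated old control, 1 at a time, gave no passing member, and leaving out the ablated young libraries of 0 h and 1 h gave 32 members higher and none lower, and scaling on short transcripts gave 37 higher. These are counts of members alone, and the share of all genes that passed in those refits is not given. In the ablated pairs both libraries shared a batch, and in the wild-type pairs they did not. No member passed by edgeR with batch as a covariate, and 3 had an unadjusted p under 0.05.

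From 0 h to 8 h the members tended downward, and other genes at a mean log2 CPM of 8 or more did so as well. The share of members that passed, 8.24%, was not above the share of all genes. Of 85 members 7 passed, each of them lower at 8 h, where 10.5% of all genes passed, 6.46% higher and 4.03% lower, and the median of the members was -0.12 against -0.06 over all genes. The 483 other genes at a mean log2 CPM of 8 or more had a median of -0.16. With batch as a covariate no member passed by edgeR, with 5 at an unadjusted p under 0.05, and 1 of 6 pairs shared a batch. The 7 members were RpL13A with -0.30 ± 0.08, RpL39 with -0.29 ± 0.06, RpS2 with -0.27 ± 0.09, RpL41 with -0.22 ± 0.07, RpS27A with -0.21 ± 0.06, RpL31 with -0.19 ± 0.06 and RpS12 with -0.17 ± 0.05, of which RpL31 and RpS12 lay outside the naming rule. RpS12 is known in flies for marking cells with impaired ribosomes. The mean of the members was lower at 8 h in 5 of 6 pairs, and higher in ablated young flies, by 0.19. Without the early ablated young libraries 26 members were lower. Of eggshell markers 5 of 11, of female germline markers 3 of 11 and of fat body markers 3 of 8 were lower at 8 h, with 2 fat body markers higher. Of 10 gut markers 1 was higher, of 8 haemocyte markers 1 was lower, and no muscle or neuron marker passed. The part of these cell types in the result was not tested.

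Climbing behaviour was compared within wild-type flies. Between non-climbers and climbers of 12 matched wild-type pairs, 11 of them within a batch, no member passed by edgeR or DESeq2, as was so for all genes by edgeR (0%), and 7 members had an unadjusted p under 0.05. The mean of the members was higher in 6 pairs and lower in 6, from -0.08 to 0.14. RpS29, RpL36 and RpL5 had the smallest p, with 0.10 ± 0.04, 0.10 ± 0.05 and 0.11 ± 0.05, each higher in 10 of 12 pairs.

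The course over hours was compared as a slope per unit of the log2 of the hour plus 1. Between old and young heat-shocked wild-type flies, over 24 libraries, no member's slope differed by edgeR or DESeq2, where 0.0457% of all genes passed, 0.00913% with a more positive and 0.0365% with a more negative slope, and 12 members had an unadjusted p under 0.05. Between ablated and wild-type climbers, over 24 libraries, 11 of 86 members had a more positive slope in ablated flies and none a more negative one, where 8.36% of all genes passed, 2.96% more positive and 5.41% more negative. RpL13A differed by 0.15 ± 0.04 per unit, RpS14a and RpS20 by 0.14 ± 0.03 and 0.14 ± 0.04, and RpL8 and RpLP1 by 0.13 ± 0.04 each. Without the ablated young 0 h and 1 h libraries no member passed by edgeR, and with scaling on short transcripts 2 passed with more negative slopes. No slope passed by edgeR with batch as a covariate, and 4 had an unadjusted p under 0.05.

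**Figure D4:**
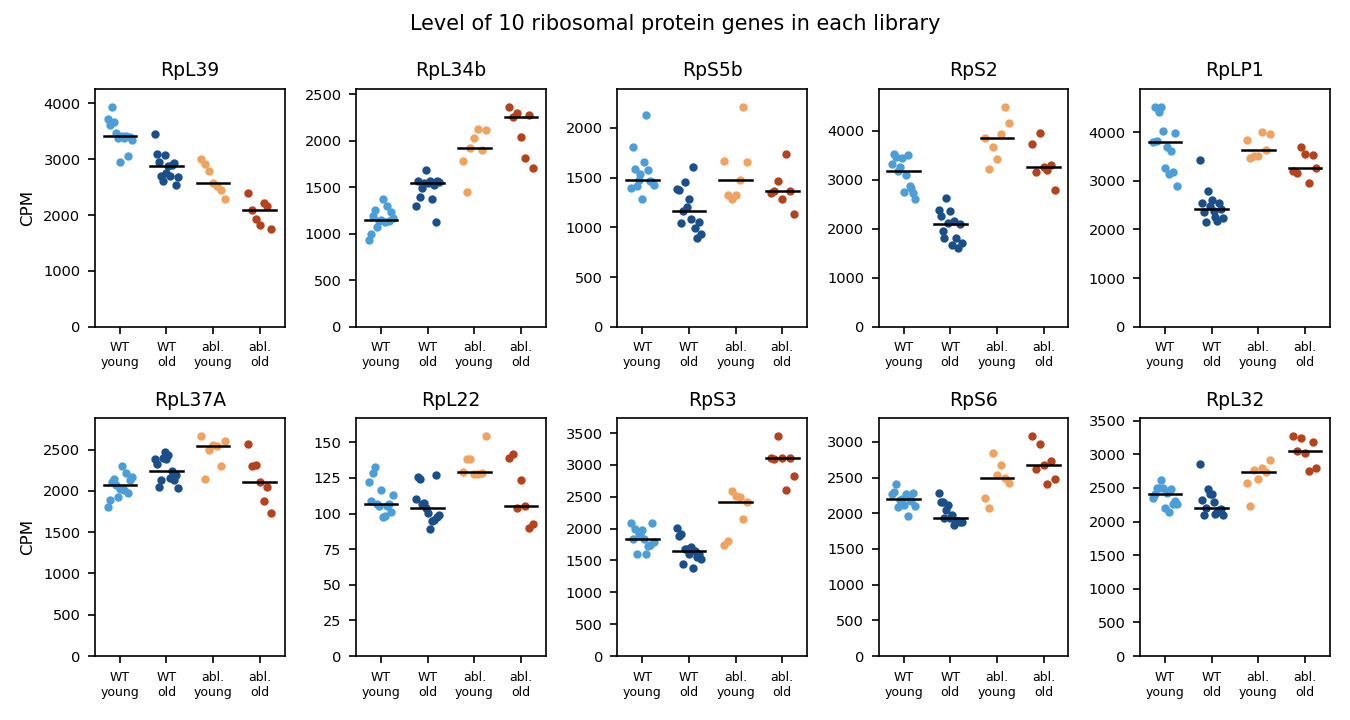
Points give the level of 10 members in each library in CPM (vertical axis from 0), grouped by genotype (WT, wild type; abl., ablated) and age, and bars are medians. RpL39 has medians of 3417, 2883, 2573 and 2085 CPM from left to right, whereas RpS3, RpS6 and RpL32 are highest in ablated old flies.

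A few members departed from the rest over the 40 libraries. The mean log2 CPM of the 83 abundant members had an SD of 0.19 over libraries, and 69 of the 83 had a Pearson correlation of at least 0.8 with the mean of the others, given as a description over libraries that share batches. The SD of a member after that mean was subtracted ran from 0.05 for RpS6 to 0.41 for RpL39. RpL39 also had the lowest correlation, at -0.47, followed by RpL37A at 0.18, RpS5b at 0.35 and RpL22 at 0.42. The SDs of RpL34b, RpS5b, RpS2, RpLP1, RpL37A and RpL22 around the mean were 0.30, 0.28, 0.27, 0.23, 0.22 and 0.21.

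RpL39 was lower in old than in young flies of each genotype and lower in ablated than in wild-type flies of each age. Its medians were 3417 CPM in wild-type young, 2883 CPM in wild-type old, 2573 CPM in ablated young and 2085 CPM in ablated old libraries, and neighbours in this order overlapped in range. The wild-type age difference was -0.27 ± 0.04, in 13 of 13 pairs. On chromosome 2R of the dm6 assembly, RpL39 runs from 24061853 to 24062431 on the minus strand and its 3' end overlaps that of RpL12, which runs from 24060378 to 24061860 on the plus strand. RpL12 went the other way between ablated and wild-type old flies, with 0.60 ± 0.07, and with age in ablated flies, with 0.23 ± 0.07. With age in wild type RpL12 was lower as well, with medians of 2344 CPM in young and 2055 CPM in old libraries, overlapping in range. Whether reads of this pair were split by strand was not stated.

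RpL34b was higher in old than in young wild-type flies and higher in ablated than in wild-type flies of each age. Its medians were 1152, 1546, 1922 and 2252 CPM in wild-type young, wild-type old, ablated young and ablated old libraries. RpS2 had medians of 3186, 2097, 3848 and 3260 CPM in the same order, and RpLP1 of 3798, 2411, 3625 and 3269 CPM, so that the wild-type old libraries were the low group for both. RpL22, known to have a paralogue used in the male germ line of flies, had medians of 107, 104, 129 and 105 CPM, with the ablated young libraries the high group.

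The paralogue pairs, set by gene name, differed in how evenly their counts were divided. Whether the products of a pair replace each other in ribosomes was not tested. RpS5b, whose product is known to be enriched in the ovary, held 53.1 to 64.8% of the counts of RpS5a and RpS5b in wild-type young libraries, with a median of 57.4%, and medians of 53.8, 52.8 and 49.9% in wild-type old, ablated young and ablated old libraries. The ranges of the 4 groups overlapped. RpS5a rose by 0.46 ± 0.06 between wild-type and ablated old flies, and RpS5b had 0.12 ± 0.10. Summed female germline markers had medians of 2935, 2856, 2751 and 2894 CPM in the 4 groups.

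RpL34a held 26.1 to 33.4% of its pair in wild-type young libraries and 20.0 to 26.4% in wild-type old ones, overlapping in range, with medians of 27.9 and 21.1%. In ablated young and old libraries the medians were 19.4 and 19.5%. The changes with age in wild type were -0.16 ± 0.04 for RpL34a and 0.35 ± 0.07 for RpL34b. The difference between these changes was not tested. Other pairs moved less: RpS14b held 14.6 to 21.3%, RpL24-like 11.3 to 16.5% and RpS15Ab 2.68 to 4.06% of their pairs over all libraries. RpS14a and RpS14b lie side by side and are near-identical, so their division is uncertain.

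**Figure D5:**
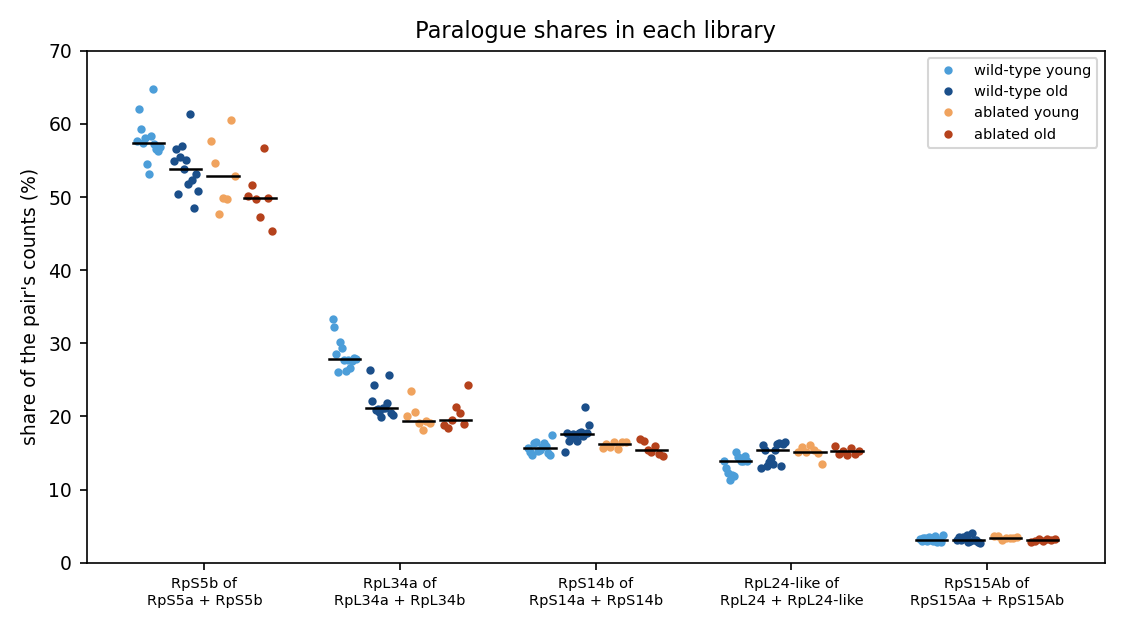
The vertical axis gives the share of a pair's counts that the named paralogue held, in percent, with 1 point per library and bars for the medians of the 4 groups. The RpL34a medians step from 27.9% in wild-type young libraries to 21.1, 19.4 and 19.5% in the others, and the RpS5b medians run from 57.4 to 49.9%.

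The remaining paralogues were near or at 0. RpS10a held at most 0.0835% and RpS19b at most 0.0522% of their pairs in any library. RpL10Aa had 18 counts, all in the wild-type young non-climber 6 h library, and RpL22-like had 12 of its 38 counts there. That library is the one with testis and male accessory gland markers. RpL7-like had no count in any of the 40 libraries, which allows up to 0.00352 CPM over all libraries together. Without that library and the wild-type old climber 1 h library, 50 members passed for age in wild type and 80 for genotype in old flies.

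Other genes of translation gave a background for these changes. The 2 ribosomal proteins named otherwise, sta (RpSA) and Rack1, rose by 0.54 ± 0.08 and 0.44 ± 0.06 between wild-type and ablated old flies. Of 72 mitochondrial ribosomal protein genes tested, which encode the separate ribosome of mitochondria, 67 were higher and 2 lower in ablated old flies, with a median of 0.46, and 1 was higher and 52 lower with age in wild type, with a median of -0.22. Their median longest transcript was 783 bases. Of 10 elongation and nascent chain factors, 8 were higher and 2 lower in ablated old flies. They included eEF1beta, the exchange factor of the elongation complex, with 0.76 ± 0.05, and eEF1alpha2, with -0.99 ± 0.10, which went up with age in wild type by 0.65 ± 0.08.

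Of 26 initiation factors, 16 were higher and 9 lower in ablated old flies, among the latter the poly(A)-binding protein gene pAbp with -2.70 ± 0.22, the scaffold eIF4G1 with -1.77 ± 0.15 and eIF4H1 with -1.66 ± 0.11. Of 17 growth control genes 3 were higher and 11 lower, with a median of -0.72, among them Myc, a driver of ribosome production, with -1.70 ± 0.17, larp, which binds mRNAs of the translation machinery, with -1.53 ± 0.14, and Trf2, a core promoter factor of ribosomal protein genes, with -2.48 ± 0.23. Of these 17 genes 10 have a transcript of 4000 bases or over. Of 19 ribosome assembly genes 9 were higher and 3 lower, and wcd was among the former with 0.95 ± 0.09. Xrp1, which in flies responds to ribosomal protein loss, changed by -1.03 ± 0.15 in ablated old flies, by 0.49 ± 0.11 with age in wild type and by 0.98 ± 0.16 from 0 h to 8 h.

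The genes most like the members in pattern were sought among 4257 others that reached a mean log2 CPM of 5. Over the 40 libraries, the mean of the members had its highest Pearson correlations with eEF1beta (0.955), CG11267 (0.9498), Rack1 (0.922), eEF1alpha1 (0.920), mEFTu1 (0.917), Ssadh (0.909), CG8891 (0.906) and Mal-A5 (0.905), as a description over libraries that share genotype, age and batch.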

How the data were processed

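RNA from whole flies was measured in 40 libraries. Per the labels, Trizol extraction was followed by a 3' end kit from Lexogen (Quant, version V2), and read 1 alone was used. The authors deposited raw counts for each gene, with no normalization. STAR 2.7.5a and the dm6 build were named in the submitters' processing notes, but how reads were assigned to genes, on which strand, and whether duplicates were collapsed was not given in the sources used here. A symbol was found for 17596 of 17609 identifiers, and 1824 genes had 0 counts.

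Genotype, age, behaviour, hour and batch came from the labels. Since each condition had 1 library, contrasts came from an additive model over all 40 libraries with 28 residual degrees of freedom, which assumes that hours act alike in all groups, and p-values measure the spread between libraries, for which nothing states separate collections. The test was edgeR 4.0.16 in R 4.3.3 (robust quasi-likelihood, TMM, filterByExpr, Benjamini-Hochberg adjustment over all genes, threshold 0.05), and its code was tested on simulated data. Standard errors were taken from the F statistic. CPM are counts scaled by TMM. A matched pair is 2 libraries alike in all labels but the one compared. Alternatives were other scalings, DESeq2 1.42.0, limma-voom 3.58.1, no filter on low counts, batch terms and libraries left out. Counts from these alternatives are of members alone, without the share of all genes that passed in each. Transcript lengths and positions came from the Ensembl annotation, and no sequence was used here.

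The members, the gene lists and the tests were chosen with earlier results of these data known. Genes were named by a rule: up to 5 largest rises and 5 largest falls per comparison among passing members whose mean log2 CPM reached 3, or the 3 smallest p where none passed, the paralogues and the members with a known role, up to 3 passing genes of each other list, and the 8 genes most like the members. RpL12, RpL31 and RpS12 were named after their values were seen. The values of 1 member that the rule would name are not reported here.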

Additional observations from a re-analysis of the deposited data

Results flagged for a closer look

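The age effect of the members differed between the genotypes by a test of the difference itself, in 69 of the 85 members tested. Over all genes tested 36.4% passed, and with batch as a covariate no member did. Among the members named, the difference was 0.61 for RpS3, 0.55 for RpL40, 0.54 for RpL41, 0.50 for RpL4, 0.48 for RpS23, 0.42 for RpLP1, 0.39 for RpLP2, 0.36 for RpL34a, 0.30 for RpS6, 0.25 for RpL32, 0.23 for RpL36 and 0.22 for RpS5a on the log2 scale, and -0.35 for RpL37A. Genotype and batch cannot be told apart here.

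The slope over hours differed between ablated and wild-type climbers for 11 of 86 members, among them RpL13A with 0.15, RpS14a with 0.14, RpS20 with 0.14, RpL8 with 0.13 and RpLP1 with 0.13 per unit of the log2 of the hour plus 1. Over all genes tested in that fit 8.36% passed. The count of members fell to 0 without 2 libraries, ablated young 0 h and 1 h. With batch as a covariate no member's slope passed.

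In the ablated young libraries the ratio of large to small subunit counts was 1.51 at 1 h, far below the other 6 by the gap to the nearest of them. Of 4 such groups of values examined, chance would single out a library in about 1 group of 20.

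Counts above 3 appeared for members too low to be tested. RpL10Aa had 18 and RpL22-like 12 in the wild-type young non-climber 6 h library, RpL37-2 had 12 in the ablated old 0 h library, RpS28-like had 8 in the ablated young 0 h library, and RpS28a had 8 in the ablated old control.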

How the results depend on the processing

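The counts of passing members for genotype in old flies stayed between 80 and 81 when the libraries of 1 hour or 1 control were left out at a time, and ran from 43 to 62 for age in wild type, 21 to 57 for age in ablated flies, 19 to 61 for genotype in young flies, 47 to 73 for age by genotype, 0 to 9 for 0 h against control, 2 to 9 for 8 h against 0 h and 0 to 3 for the slope by genotype. They were 0 in each such setting for heat at 4 h, behaviour and the slope by age. The lowest counts came without the 0 h libraries for age in ablated flies (21) and without those of 8 h or 2 h for genotype in young flies (19 and 21). Leaving out 0 h, 4 h or 8 h gave no value for the contrasts that need that hour. With batch as a covariate the counts were 0 for age in wild type, 3 for age in ablated, 1 for genotype in young, 2 for genotype in old flies, and 0 for age by genotype, 0 h against control, 8 h against 0 h and the slope by genotype. The values of RpL37A, RpS3 and RpS5a for age in wild type were then -0.067, 0.17 and 0.027, of RpL32 for age in ablated flies -0.0041, of RpL34b and RpLP0 for genotype in old flies -0.10 and -0.12, and of RpL32 and RpS5a for age by genotype -0.030 and -0.13. With batch as a random block in limma-voom the counts were 48, 43, 50, 80 and 56 for age in wild type, age in ablated, genotype in young, genotype in old and age by genotype. Scaling on short transcripts gave 33, 26, 22, 52 and 32 in the same order, 37 for 0 h against control, 12 for 8 h against 0 h and 2 for the slope by genotype, with RpL22 at -0.20 for genotype in old flies. TMM factors without the ribosomal protein genes gave 28 for genotype in young flies, 1 for 0 h against control, 2 for 8 h against 0 h and 4 for the slope. RLE size factors gave 1, 2 and 3 for these last 3, every gene with a count gave 1, 2 and 3, DESeq2 gave 3 for 8 h against 0 h, and a slope on hours gave 5. Scaling on short transcripts and the last 2 sets of libraries left out below were chosen after seeing the data. Without the ablated young control and 6 h libraries the counts were 25 for genotype in young flies, 2 for heat at 4 h and 10 for 0 h against control. Without ablated young 0 h and 1 h they were 10 for age in ablated flies, 32 for 0 h against control, 26 for 8 h against 0 h and 0 for the slope. Without wild-type old climber 1 h and wild-type young non-climber 6 h 0 h against control had 1. On TMM-scaled library sizes the median share was 20.2% in wild-type young and 24.6% in ablated old libraries. The pairing of climbers with non-climbers by age and hour as a block gave 0 members for behaviour. All these counts are of members alone, without the share of all genes in each setting. The cause of these shifts was not tested. The 6 members not tested had at most 65 counts each over all libraries, so differences in them were not detectable at this depth.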
